A study of Mus musculus with 8 samples.

Results

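The comparison described here sets the mouse hearts given iFTn-M4 against the hearts given PBS after ischemia-reperfusion. It was chosen by group label, and it takes 4 of the 8 libraries of the series, 2 labelled iFTn-M4 and 2 labelled PBS. The series title names genetically engineered, ionizable protein nanocages that act as nanozymes and scavenge superoxide inside cells. The labels name 3 such nanocages, iFTn-M4, iFTn-R4 and iFTn-MR4, and do not say what the letters after the hyphen stand for. In the iFTn-M4 group the hearts underwent ischemia-reperfusion, and the nanocage was given in 2 doses at a protein concentration equivalent to 2.5 mg/kg. In the PBS group the hearts underwent the same injury with the buffer in place of the nanocage. RNA was taken after 3 days from the injured heart tissue. All groups therefore share the injury, and no uninjured heart is among them. Strain, age and sex are not given in the sources used here. The values of the 2 groups were joined gene by gene, which left 16547 genes with values in both, of which 13953 had enough counts to test.

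Ischemia-reperfusion injures the heart when blood flow returns to oxygen-starved muscle. Mitochondria then release superoxide, which superoxide dismutases turn into hydrogen peroxide and which catalase and the peroxidases remove further. Dying cells set off sterile inflammation, in which neutrophils and then monocytes enter the tissue, interferons and chemokines are made, and surviving muscle cells switch on stretch, heat shock and endoplasmic reticulum stress genes. Fibroblasts later fill the damaged area with matrix.

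The 2 iFTn-M4 libraries held 13908143 and 14537959 expected counts, against 15729385 and 15478158 in the PBS libraries. Whether the libraries of 1 group came from different animals is not stated, and p-values then reflect spread between samples that may be technical. The PBS values stand in a table of their own, and the nanocage values in another, so group and table cannot be told apart in any value below. Replicates differed by more than counting noise and to a like degree, at 6.378 (iFTn-M4) and 7.213 (PBS) for chi-square over its degrees of freedom. Sarcomere genes of heart muscle summed to 78573 and 80081 CPM in iFTn-M4, against 68812 and 71502 CPM in PBS and stand for the labelled heart tissue. The surfactant, lymphocyte-development and fast skeletal myosin genes on the list of other tissues were among the 12 of 15 members that had no value in both tables or too few counts to test.

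Fold changes ran with transcript length. Among the quintile of tested genes with the shortest transcripts the median log2 fold change of iFTn-M4 over PBS was -0.23, and among the quintile with the longest it was 0.31. The difference between these quintiles was 0.52 and 0.55 when each iFTn-M4 library was set against PBS alone. Across genes, which are not independent replicates, the Spearman correlation of fold change with length was 0.39. The same correlation was -0.01 for iFTn-M4 against iFTn-R4 and -0.07 for iFTn-M4 against iFTn-MR4, which lie in 1 table. The effective lengths that the deposited values imply also differed a little between tables, from a ratio of 1.024 (nanocage over PBS) in the shortest quintile to 1.004 in the longest. A per-library length offset brought the correlation to -0.01 and all 5 medians to between -0.02 and 0.01. The offset was fitted to the length trend of these same libraries, so this flattening follows from the fit and does not test it.

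**Figure D1:**
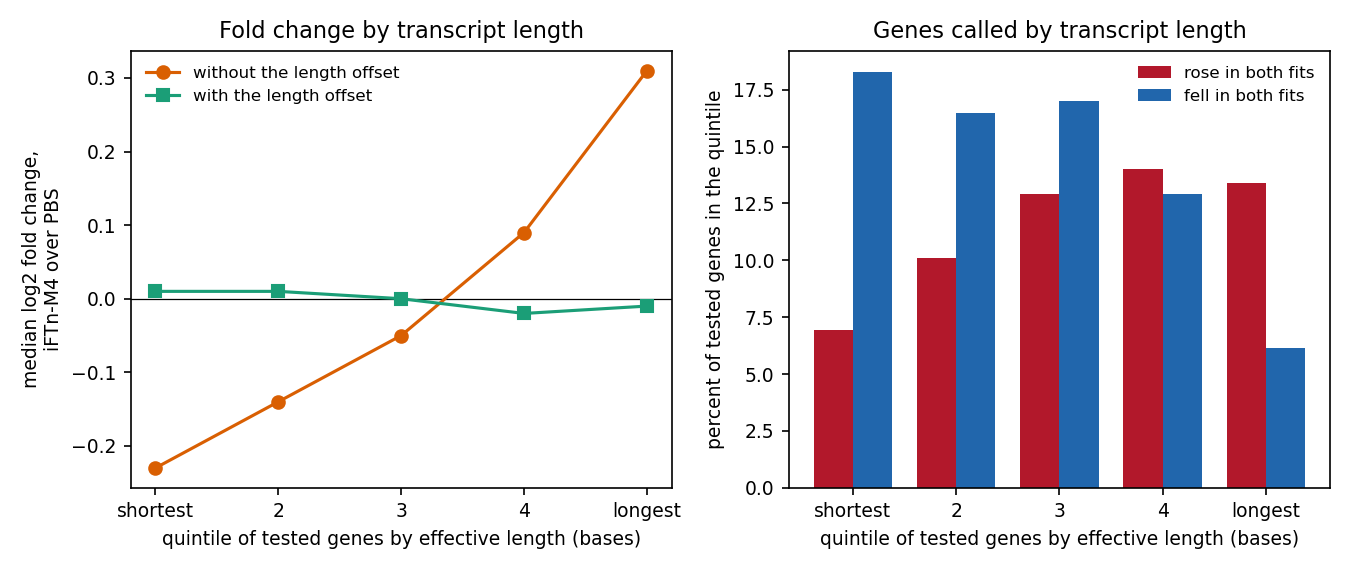
Left, the median log2 fold change of iFTn-M4 over PBS (vertical axis) in each quintile of tested genes by effective transcript length (horizontal axis), without and with a length offset. Right, the percent of genes in each quintile that rose or fell in both fits. Without the offset the medians climb from -0.23 to 0.31 with length. With it they stay near 0, which follows from its being fitted to this trend.

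A gene was therefore said to rise or fall only where edgeR's quasi-likelihood test passed an adjusted p (Benjamini-Hochberg, over all tested genes) of 0.05 in the same direction both without and with the offset. The larger of the 2 adjusted p-values is given, and log2 fold changes are those without the offset, ± their standard error, for 2 libraries a group. By this rule 3576 of 13953 genes were called, a background of 25.6%. Of all tested genes 1599 rose, or 11.5%, and 1977 fell, or 14.2%. These shares still ran with length, at 6.92% rises and 18.3% falls in the shortest quintile and 13.4% and 6.16% in the longest. Falls also ran with level, from 6.49% in the quintile of lowest mean CPM to 21.8% in the highest. Lists of short or abundant genes are set below beside the shares of all tested genes, not of genes of like length or level. The fit without the offset alone called 5745 genes, 2764 up and 2981 down, and the fit with the offset alone 4580, 2119 up and 2461 down. The median called rise was 0.72 and the median called fall -0.66 on the log2 scale. Falls reached further than rises, with 117 falls and 37 rises of at least 4-fold, and 27 falls and 5 rises of at least 8-fold. Every called gene had both libraries of 1 group above both of the other, as did 10406 of all 13953 tested genes (74.6%), so such a gap between groups is common here. Leaving out a library left 1885 calls without iFTn-M4 replicate 2, 2363 without iFTn-M4 replicate 1, 2142 without PBS replicate 1 and 2214 without PBS replicate 2. On log2(TPM + 1), where the median of all genes moved to 0.14, 73.3% of the calls were rises, against 44.7% in the counts.

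**Figure D2:**
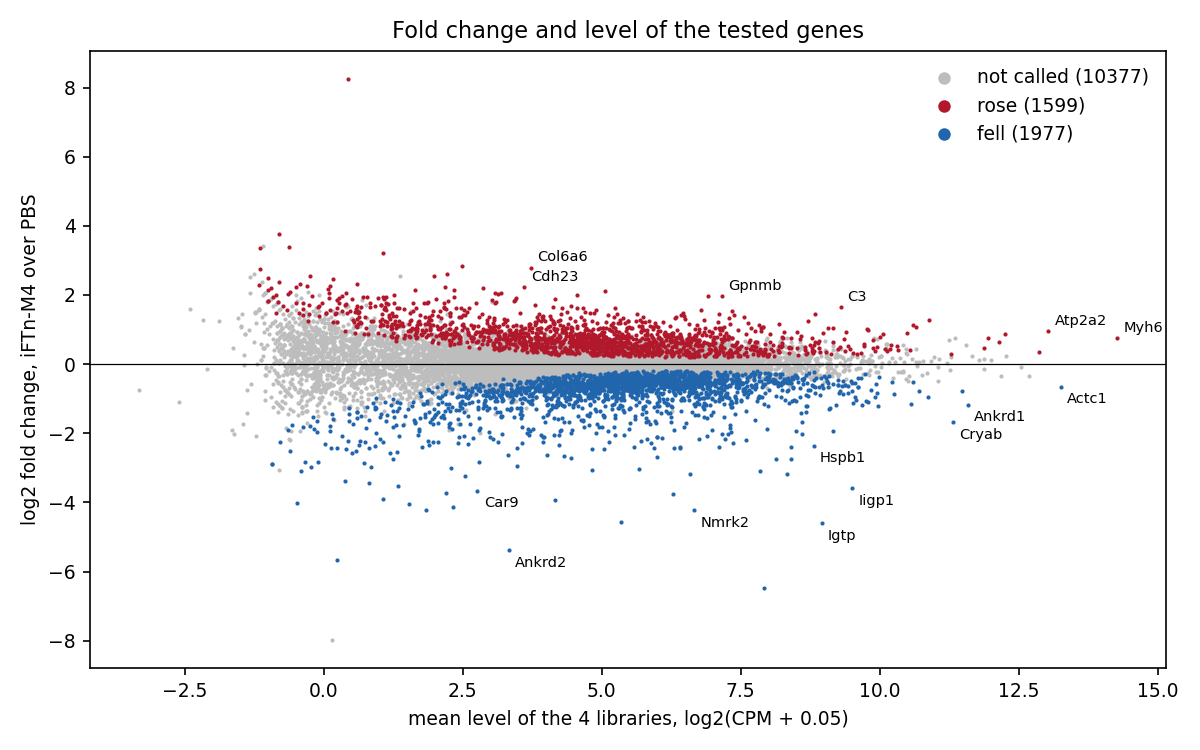
Each dot is 1 of 13953 tested genes, placed by its mean level in the 4 libraries (horizontal axis, log2 of CPM + 0.05) and its log2 fold change of iFTn-M4 over PBS (vertical axis). Red genes rose (1599) and blue genes fell (1977) in both fits, and the blue cloud reaches further from 0 than the red.

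Levels below are CPM, each gene's share of its library's counts on a scale common to all libraries, set with edgeR's TMM factors, with replicate 1 before replicate 2 in each group. Tissue was sequenced in bulk, so fewer cells of a type and less RNA per cell cannot be told apart. The leading genes had at least 5 CPM in the higher group and whole-number counts, and predicted genes, clones and pseudogenes were left out. Of these the largest fall was that of Ankrd2, a stretch-responsive protein of the muscle sarcomere. It had 0.572 and 0.345 CPM in iFTn-M4, against 14.5 and 24.5 CPM in PBS (log2 fold change -5.39 ± 0.37, 95% interval -6.22 to -4.55, edgeR adjusted p = 2.64e-05). Ankrd2 is Entrez gene 56642, chromosome 19, 42035917 to 42045111 on build GRCm38.p6, which all positions below use. Nmrk2, a muscle kinase that makes NAD from nicotinamide riboside, stood at 10.3 and 10.1 CPM in iFTn-M4, against 234 and 151 CPM in PBS (-4.24 ± 0.30; Entrez gene 69564, chromosome 10, 81198170 to 81202265). Ankrd2 was thus under 1 CPM in both iFTn-M4 libraries, while Nmrk2 stayed readily detected there. Ido1, which breaks down tryptophan and is induced by interferon gamma, gave 0.215 and 0.482 CPM in iFTn-M4, against 7.52 and 5.82 CPM in PBS (-4.22 ± 0.52; Entrez gene 15930, chromosome 8, 24584133 to 24596952). Cxcl3, a neutrophil attractant, gave 0.716 and 0.345 CPM in iFTn-M4, against 11.6 and 7.27 CPM in PBS (-4.14 ± 0.53). Tnfrsf9, a costimulatory receptor of activated lymphocytes, gave 0.358 and 0.276 CPM in iFTn-M4, against 6.45 and 4.23 CPM in PBS (-4.04 ± 0.43). The early-response transcription factor Fosl1 was also lower, at 0.644 and 0.62 CPM in iFTn-M4, against 8.28 and 8.66 CPM in PBS (-3.73 ± 0.34). Car9, a hypoxia-induced carbonic anhydrase, had 1.07 and 0.896 CPM in iFTn-M4, against 15.1 and 9.91 CPM in PBS (-3.66 ± 0.37). Sprr2a2, a small proline-rich protein of epithelia, had 2.22 and 0 CPM in iFTn-M4, against 11.1 and 9.85 CPM in PBS (-3.25 ± 0.65), with no count in iFTn-M4 replicate 2. Its log2 fold change was -2.23 without that library and -10.28 without iFTn-M4 replicate 1, and its call ended by adjusted p for Sprr2a2 (0.109 in DESeq2). The fold changes of Ido1 and Cxcl3 were -4.90 without iFTn-M4 replicate 2 and -4.76 without iFTn-M4 replicate 1. On log2(TPM + 1), which understates the change of low genes, these falls lay between -1.90 and -4.16, apart from that of Nmrk2. The groups did not overlap in these 8 genes, which the naming rule required. Outside the naming rule, and chosen after its values were seen, the predicted gene Gm4841 was lower still, at 5.37 and 5.24 CPM in iFTn-M4, against 445 and 508 CPM in PBS (-6.49 ± 0.14).

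The largest rises that the naming rule allowed were smaller and were led by matrix and membrane proteins. The 5 called rises of at least 8-fold lay outside that rule. Col11a1, a fibrillar collagen chain best known from cartilage, had 11.7 and 7.72 CPM in iFTn-M4, against 1.2 and 1.52 CPM in PBS (log2 fold change 2.83 ± 0.33, 95% interval 2.08 to 3.58, edgeR adjusted p = 0.000671; Entrez gene 12814, chromosome 3, 114030479 to 114220756). Col6a6, a chain of beaded-filament collagen VI, had 22.6 and 23.5 CPM in iFTn-M4, against 3.6 and 3.04 CPM in PBS (2.79 ± 0.17; Entrez gene 245026, chromosome 9, 105689417 to 105828246). Both pairs of iFTn-M4 libraries stood several times above both PBS libraries. Cngb3, a cyclic nucleotide-gated channel subunit known from cone photoreceptors, was at 7.16 and 8.68 CPM in iFTn-M4, against 1.01 and 1.59 CPM in PBS (2.61 ± 0.34). The fibrillar collagen chain Col24a1 was at 9.16 and 4.2 CPM in iFTn-M4, against 1.2 and 1.06 CPM in PBS (2.55 ± 0.53). Cdh23, a large cadherin known from the hair cells of the inner ear, was at 21.8 and 18.3 CPM in iFTn-M4, against 3.85 and 4.69 CPM in PBS (2.23 ± 0.16; Entrez gene 22295, chromosome 10, 60302748 to 60696513). Atp6v0d2, a proton pump subunit of osteoclasts and some macrophages, was at 6.73 and 8.06 CPM in iFTn-M4, against 2.34 and 0.793 CPM in PBS (2.22 ± 0.39). Kcnv2, a silent potassium channel subunit, was at 11.4 and 12.5 CPM in iFTn-M4, against 2.78 and 2.38 CPM in PBS (2.2 ± 0.25). Akap5, an anchoring protein for protein kinase A, was at 8.95 and 7.31 CPM in iFTn-M4, against 1.2 and 2.51 CPM in PBS (2.13 ± 0.37). Without PBS replicate 2 the fold change of Akap5 was 2.75, without PBS replicate 1 that of Atp6v0d2 was 3.21, and without iFTn-M4 replicate 1 that of Col24a1 was 1.87. On log2(TPM + 1) the rises lay between 1.02 and 1.91, apart from that of Atp6v0d2. The call ended, by adjusted p, for Col24a1 (0.0579 to 0.0832 without iFTn-M4 replicate 1 or either PBS library, 0.057 on log2 TPM).

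**Figure D3:**
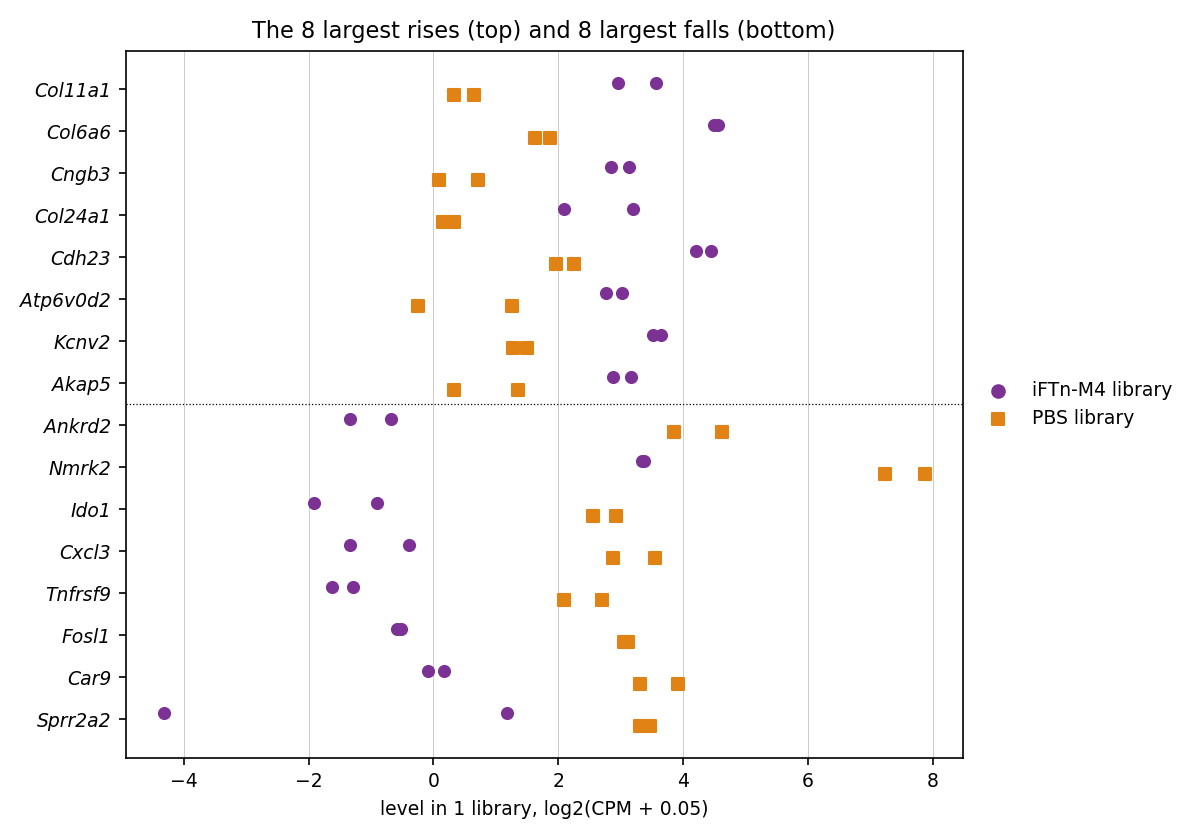
Level in each library (horizontal axis, log2 of CPM + 0.05). Genes are the 8 largest rises (top) and the 8 largest falls (bottom) that the naming rule allowed. Circles are the 2 iFTn-M4 libraries and squares the 2 PBS libraries, and in each gene the circles lie on 1 side of the squares, as the naming rule required.

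The other nanocage groups allow the same genes to be set side by side within 1 table, without the PBS libraries. These comparisons share the iFTn-M4 libraries with the comparison above, so they are not independent of it. The iFTn-R4 replicates differed most, at 16.06 for chi-square over its degrees of freedom, against 6.378 for iFTn-M4 and 4.951 for iFTn-MR4. All groups shared 1 estimate of the spread, so the p-values against iFTn-R4 do not carry this larger difference in full. Ankrd2 had 0.572 and 0.345 CPM in iFTn-M4, against 2.44 and 1.99 CPM in iFTn-R4 (-2.26 ± 0.47, edgeR adjusted p = 0.0253) and 0.151 and 0.223 CPM in iFTn-MR4 (1.25 ± 0.80, not called). Tnfrsf9 was lower in iFTn-M4 than in iFTn-R4, at 0.358 and 0.276 against 2.31 and 2.12 CPM (-2.78 ± 0.47, edgeR adjusted p = 0.0114). Fosl1 (-2.25 ± 0.37, edgeR adjusted p = 0.0102) and Car9 (-1.88 ± 0.41, edgeR adjusted p = 0.0314) fell likewise against iFTn-R4. Col6a6 rose against iFTn-R4, at 22.6 and 23.5 against 13.6 and 10 CPM (0.96 ± 0.15, edgeR adjusted p = 0.00779), and so did Cdh23 (0.70 ± 0.14, edgeR adjusted p = 0.025). The other 10 leading genes were not called against iFTn-R4. Against iFTn-MR4 the lowest edgeR adjusted p among the 16 was 0.0776, for Col11a1, and log2 fold changes ran from -1.13 ± 0.77 for Sprr2a2 to 1.45 ± 0.30 for Col11a1.

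**Figure D4:**
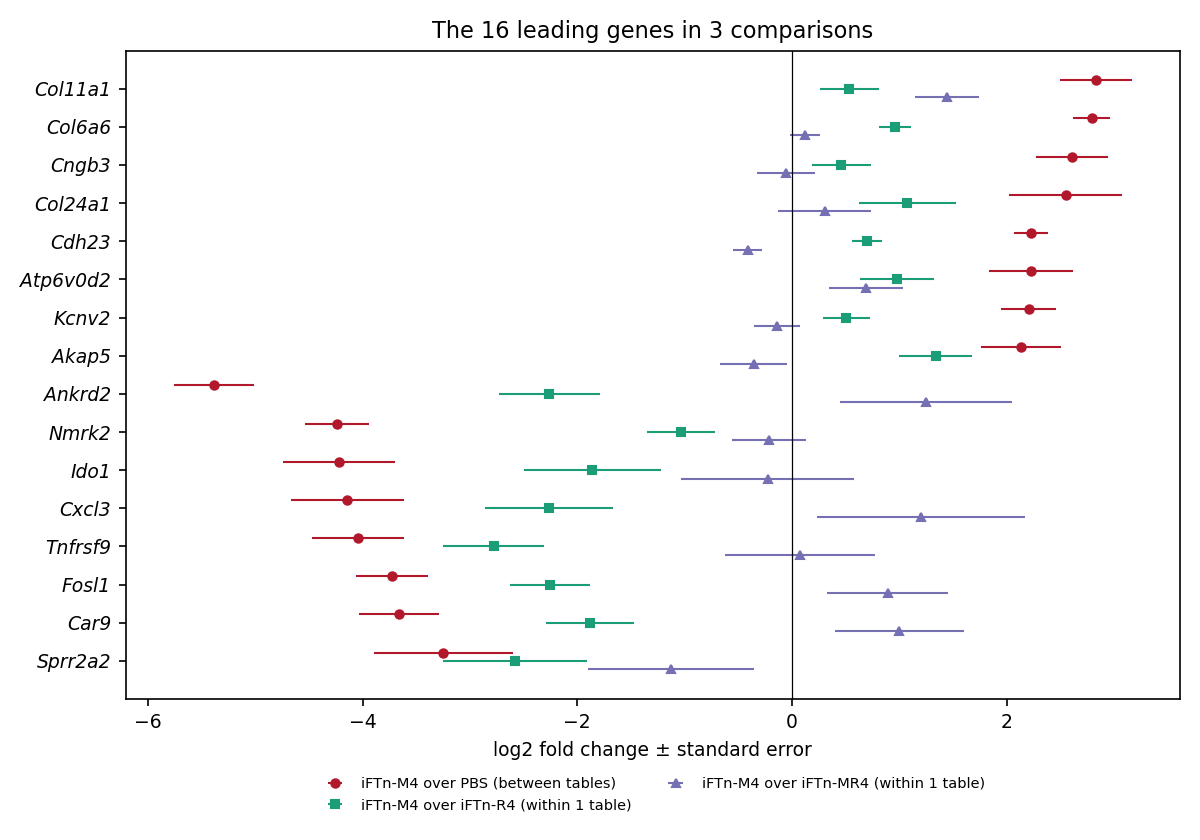
Log2 fold change (horizontal axis, bars are standard errors) of iFTn-M4 over PBS, over iFTn-R4 and over iFTn-MR4 for the 16 leading genes. The comparison with PBS is also one between tables, and the other comparisons lie within 1 table. Fold changes over PBS are the furthest from 0 in every gene.

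The antiviral, GTPase and MHC class I lists gave the highest shares of falls among the lists. Interferons act through STAT and IRF factors and switch on antiviral genes, defence GTPases and the machinery that shows peptides on MHC molecules. Of 30 tested antiviral genes 29 fell and none rose, with a median log2 fold change of -1.12, beside 14.2% falls and a median of 0 among all tested genes. Irf7, the amplifier of type I interferon production, had 116 and 102 CPM in iFTn-M4, against 344 and 447 CPM in PBS (-1.86 ± 0.14). Zbp1, a sensor of unusual nucleic acids that can trigger necroptosis, had 26.6 and 21.1 CPM in iFTn-M4, against 96.7 and 110.4 CPM in PBS (-2.12 ± 0.17). Of the guanylate-binding proteins and immunity-related GTPases, which attack the vacuoles of intracellular microbes, 16 of 17 fell, with a median of -2.19. Iigp1 had 115 and 108 CPM in iFTn-M4, against 1321 and 1375 CPM in PBS (-3.59 ± 0.12, edgeR adjusted p = 5.51e-07), and Irgm2 had 98.1 and 77.8 CPM in iFTn-M4, against 576 and 597 CPM in PBS (-2.74 ± 0.12). Igtp had 44.4 and 33.8 CPM in iFTn-M4, against 868 and 1040.5 CPM in PBS (-4.61 ± 0.15). The counts of these 3 GTPases were split, that is not whole, in 1 of the 4 libraries, so their sizes are less certain. The genes that shared the reads are not given. Of the 17 members 11 had split counts, and in the fit without such genes 5 of the remaining members fell. The 2 PBS libraries were close together for Iigp1 and Irgm2 and further apart for Irf7 and Igtp. In the 22 lists named here and below in which edgeR called no rise, no member rose at an unadjusted p under 0.05 in both fits, DESeq2 called 0 and limma on log2(TPM + 1) called 6. In the 15 lists with no called fall, 8 members fell at that unadjusted p, and DESeq2 and limma called 0.

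Interferon gamma signalling gave 8 falls and no rise among 13 tested genes. Irf1, the transcription factor that carries much of the interferon gamma response, had 50 and 46.2 CPM in iFTn-M4, against 122 and 126 CPM in PBS (-1.37 ± 0.09). Nlrc5, the transactivator of MHC class I genes, had 35.6 and 30.5 CPM in iFTn-M4, against 119 and 131 CPM in PBS (-1.91 ± 0.12). Cd274, the checkpoint ligand PD-L1, had 30 and 23.4 CPM in iFTn-M4, against 134 and 150.5 CPM in PBS (-2.41 ± 0.17, edgeR adjusted p = 2.51e-05). Ifng itself had too few counts to test. All 19 tested members of MHC class I presentation and the immunoproteasome fell, with a median of -1.16. The light chain B2m had 583 and 538 CPM in iFTn-M4, against 1093 and 1318 CPM in PBS (-1.10 ± 0.11) and the peptide transporter Tap1 62.2 and 51.2 CPM in iFTn-M4, against 219 and 238 CPM in PBS (-2.01 ± 0.11, edgeR adjusted p = 9.18e-06). The heavy chains H2-K1 (-1.03 ± 0.10) and H2-D1 (-0.76 ± 0.08) fell less, and their counts were split in 1 and 2 libraries. Of the 19 members 8 had split counts, and in the fit without such genes 11 of the remaining members fell. In MHC class II presentation 4 of 12 fell, or 2 without iFTn-M4 replicate 2 and 1 to 2 on log2 TPM. Among them were the transactivator Ciita (10.3 and 8.82 CPM in iFTn-M4, against 17.5 and 19.4 CPM in PBS; -0.95 ± 0.17) and the lysosomal reductase Ifi30 (77.5 and 73.8 CPM in iFTn-M4, against 146 and 117 CPM in PBS; -0.80 ± 0.10). On log2 TPM the calls ended, by adjusted p, for Ciita (0.057 on log2 TPM) and Ifi30 (0.0529 to 0.0669 on log2 TPM).

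Promoters of the interferon lists were searched for sequence letters known from interferon-responsive genes, which some held and others did not. The windows run from 250 bases before to 50 after the start of each gene, from RefSeq on GRCm38.p6, and 11090 tested genes had one. The interferon response element core GAAANNGAA, on either strand, was in 7.31% of all these promoters, 7.39% of those of genes that rose and 11.5% of those of genes that fell. It was in 15 of 23 promoters of the antiviral list, all 10 of the GTPase list, 5 of 17 of the MHC class I list, 2 of 9 of the interferon gamma list and 1 of 9 of the MHC class II list. The STAT site TTCNNNGAA, which reads the same on both strands and can share its last letters with the core, was in 6.89% of all promoters. It was in 6 of 10 promoters of the GTPase list, 6 of 23 of the antiviral list, 3 of 9 of the interferon gamma list, 2 of 17 of the MHC class I list and 1 of 9 of the MHC class II list. A match describes the letters and is not evidence of binding. The promoter of Ifit3, an RNA-binding antiviral protein, which had 114 and 66.6 CPM in iFTn-M4, against 194 and 300.1 CPM in PBS (-1.45 ± 0.27), stands at chr19:34583279-34583578 on the plus strand, with 3 element cores in capitals, here on the reverse strand, the first starting at position -155. Igtp (chr11:58199306-58199605, plus strand) has a core at -34, shown in capitals, and a STAT site just before it, at -45. B2m (chr2:122147437-122147736, plus strand) has a core at -139. Irf1 (chr11:53769764-53770063, plus strand) has a STAT site at -90 and Ifit2 (chr19:34550444-34550743, plus strand) a STAT site at -241, each in capitals. Ifit2, a relative of Ifit3, had 112 and 59.9 CPM in iFTn-M4, against 162 and 194 CPM in PBS (-1.05 ± 0.26). Counts of Ifit3 were split in all 4 libraries, and by adjusted p the calls ended for Ifit3 (0.0503 without iFTn-M4 replicate 2) and Ifit2 (0.0579 without PBS replicate 2). Each is shown as the most abundant falling gene of its list that holds the letters counted.
Ifit3: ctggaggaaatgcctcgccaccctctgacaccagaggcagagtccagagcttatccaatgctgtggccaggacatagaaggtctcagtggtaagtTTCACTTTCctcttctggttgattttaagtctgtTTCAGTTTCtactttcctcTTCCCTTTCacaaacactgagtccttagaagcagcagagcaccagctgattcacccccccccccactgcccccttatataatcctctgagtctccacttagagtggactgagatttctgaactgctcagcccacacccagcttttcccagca
Igtp: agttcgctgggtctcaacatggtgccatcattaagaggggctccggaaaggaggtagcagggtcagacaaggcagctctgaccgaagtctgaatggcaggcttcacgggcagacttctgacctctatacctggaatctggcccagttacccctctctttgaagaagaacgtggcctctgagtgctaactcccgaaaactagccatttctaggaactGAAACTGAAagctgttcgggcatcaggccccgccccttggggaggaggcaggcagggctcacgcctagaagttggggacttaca
B2m: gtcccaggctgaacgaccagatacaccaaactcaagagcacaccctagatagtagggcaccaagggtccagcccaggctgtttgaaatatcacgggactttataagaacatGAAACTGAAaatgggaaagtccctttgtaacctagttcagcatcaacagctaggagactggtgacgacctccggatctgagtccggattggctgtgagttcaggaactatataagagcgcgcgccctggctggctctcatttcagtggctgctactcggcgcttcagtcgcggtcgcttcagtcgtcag
Irf1: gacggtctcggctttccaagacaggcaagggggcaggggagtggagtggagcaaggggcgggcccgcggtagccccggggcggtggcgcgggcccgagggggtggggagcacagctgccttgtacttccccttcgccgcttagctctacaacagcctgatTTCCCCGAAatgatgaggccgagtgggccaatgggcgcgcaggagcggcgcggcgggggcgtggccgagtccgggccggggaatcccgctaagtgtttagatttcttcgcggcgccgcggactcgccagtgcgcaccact
Ifit2: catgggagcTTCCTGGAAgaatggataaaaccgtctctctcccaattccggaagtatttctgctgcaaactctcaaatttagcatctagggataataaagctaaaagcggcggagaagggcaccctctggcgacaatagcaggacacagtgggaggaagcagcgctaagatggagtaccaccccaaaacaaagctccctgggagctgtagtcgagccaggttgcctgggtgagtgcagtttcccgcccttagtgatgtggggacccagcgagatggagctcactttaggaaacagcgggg

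Chemokines, cytokines and their receptors fell more often than they rose. Of 26 chemokines 13 fell and 2 rose, with a median of -1.16. The monocyte attractant Ccl2 had 27.6 and 20.3 CPM in iFTn-M4, against 81.2 and 125 CPM in PBS (-2.10 ± 0.23), and the CC chemokines Ccl6 (128 and 85.5 CPM in iFTn-M4, against 393 and 261 CPM in PBS; -1.62 ± 0.21) and Ccl9 (79.1 and 70.9 CPM in iFTn-M4, against 207 and 137 CPM in PBS; -1.2 ± 0.16) fell with it. Of 15 chemokine receptors 6 fell, or 3 on log2 TPM, and 1 rose. Ccr1, a receptor of monocytes and neutrophils, had 20.3 and 17.9 CPM in iFTn-M4, against 59.3 and 53.4 CPM in PBS (-1.56 ± 0.14), and Cxcr2, the receptor that brings neutrophils into tissue, had 4.79 and 1.17 CPM in iFTn-M4, against 14 and 12.8 CPM in PBS (-2.17 ± 0.44, counts split in 1 library; -3.52 without iFTn-M4 replicate 1 and -1.48 without iFTn-M4 replicate 2). The scavenging receptor Ackr4, which clears homeostatic chemokines, rose, at 7.51 and 6.55 CPM in iFTn-M4, against 2.46 and 2.58 CPM in PBS (1.48 ± 0.23).

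The interleukin 1 family and inflammasome gave 7 falls of 19. The interleukin 18 antagonist Il18bp had 12 and 12.3 CPM in iFTn-M4, against 46.6 and 69.3 CPM in PBS (-2.25 ± 0.17), the interleukin 1 antagonist Il1rn 9.45 and 9.31 CPM in iFTn-M4, against 29.6 and 18 CPM in PBS (-1.35 ± 0.23) and the decoy receptor Il1r2 2.15 and 1.24 CPM in iFTn-M4, against 12.6 and 11.5 CPM in PBS (-2.83 ± 0.27). These 3 members all restrain the pathway that the list is named for. In the interleukin 6 family 7 of 13 fell and 2 rose, with 2 falls without iFTn-M4 replicate 2 and 2 without PBS replicate 2. The transcription factor Stat3 had 199 and 193 CPM in iFTn-M4, against 285 and 300.1 CPM in PBS (-0.58 ± 0.08), and the fibrosis-linked cytokine Il11 had 0.143 and 0.276 CPM in iFTn-M4, against 1.39 and 3.17 CPM in PBS (-3.38 ± 0.62; -2.68 without PBS replicate 2 and -1.23 on log2(TPM + 1)). Of 16 NF-kB subunits and inhibitors 6 fell, or 1 without iFTn-M4 replicate 2, 2 without PBS replicate 1 and 1 on log2 TPM. Bcl3, a nuclear partner of NF-kB, had 13.5 and 13.9 CPM in iFTn-M4, against 31.2 and 31.2 CPM in PBS (-1.19 ± 0.10). Of 18 Toll-like receptors and adaptors 4 fell, or 1 without iFTn-M4 replicate 2 and 1 on log2 TPM, with the adaptor Myd88 at 40.5 and 36.4 CPM in iFTn-M4, against 71.9 and 70.1 CPM in PBS (-0.89 ± 0.08). Of 17 eicosanoid enzymes 5 fell, or 8 without PBS replicate 2, and 3 rose. Cyclooxygenase 2, Ptgs2, had 5.87 and 5.86 CPM in iFTn-M4, against 16 and 18.8 CPM in PBS (-1.57 ± 0.23), while the prostaglandin D synthase Hpgds rose, at 21.5 and 22.1 CPM in iFTn-M4, against 9.98 and 7.67 CPM in PBS (1.30 ± 0.15). Of 12 leukocyte adhesion genes 6 fell and 2 rose, with 3 falls without iFTn-M4 replicate 2. Beside these counts, 14.2% of all tested genes fell.

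Markers of immune cells moved in different directions. Of 18 neutrophil markers 12 fell and none rose, with a median of -1.81, and their summed level was 158 and 93.3 CPM in iFTn-M4, against 453 and 312 CPM in PBS. The growth factor receptor Csf3r had 36.3 and 26.9 CPM in iFTn-M4, against 82.5 and 67.1 CPM in PBS (-1.24 ± 0.18), the iron-binding lipocalin Lcn2 16.8 and 16.1 CPM in iFTn-M4, against 77.3 and 58.2 CPM in PBS (-2.04 ± 0.31) and the gelatinase Mmp9 11.8 and 8.75 CPM in iFTn-M4, against 79.4 and 32.2 CPM in PBS (-2.44 ± 0.41; -1.65 without PBS replicate 1). PBS replicate 1 held more than PBS replicate 2 for all 3, and both lay above iFTn-M4. Ly6g, which defines mouse neutrophils, had too few counts to test. Of 16 markers of infiltrating monocytes and macrophages 9 fell and 1 rose, with 5 falls without iFTn-M4 replicate 2 and 5 on log2 TPM. Their summed level was 3484 and 2543 CPM in iFTn-M4, against 4400.0 and 3057 CPM in PBS, so the groups overlapped in this sum. Arg1, arginase of wound macrophages, had 75.3 and 22.1 CPM in iFTn-M4, against 569 and 256 CPM in PBS (-3.09 ± 0.58; -2.40 without PBS replicate 1, -4.24 without iFTn-M4 replicate 1 and -2.45 without iFTn-M4 replicate 2). The exception was Gpnmb, a glycoprotein of lipid-laden macrophages, which rose, at 215 and 243 CPM in iFTn-M4, against 56.4 and 60.9 CPM in PBS (1.96 ± 0.16, edgeR adjusted p = 7.06e-05). Arg1 and Gpnmb, on 1 list, thus went opposite ways.

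Markers of resident cardiac macrophages gave 3 rises and no fall among 12, with 1 rise without iFTn-M4 replicate 2, 1 without PBS replicate 2 and 5 in the length offset fit alone. Gas6, a ligand of the receptors that clear dead cells, had 244 and 268 CPM in iFTn-M4, against 167 and 197 CPM in PBS (0.49 ± 0.09). Pan-macrophage markers gave 2 rises and 3 falls of 11, or 5 falls without the offset and 1 on log2(TPM + 0.1), with a summed level of 2351 and 2041 CPM in iFTn-M4, against 2426 and 1551 CPM in PBS, which overlapped. Fcgr1, an antibody receptor, had 56.7 and 44.9 CPM in iFTn-M4, against 101 and 106 CPM in PBS (-1.03 ± 0.10), and Cd33, an inhibitory lectin, had 12.2 and 11.3 CPM in iFTn-M4, against 5.69 and 3.97 CPM in PBS (1.28 ± 0.20). Lymphocyte markers were low, at a summed 22.9 and 23.8 CPM in iFTn-M4, against 16.7 and 23.6 CPM in PBS for 15 tested T and NK cell genes. Among them the costimulatory receptor Cd28 rose, at 7.16 and 8.34 CPM in iFTn-M4, against 3.41 and 3.5 CPM in PBS (1.16 ± 0.19), while Cd3e and Cd3d had too few counts to test. Klrk1, an activating receptor of NK cells, had 2.22 and 1.24 CPM in iFTn-M4, against 2.84 and 5.09 CPM in PBS (-1.19 ± 0.46, not called). The 8 tested B and plasma cell markers summed to 10.6 and 11 CPM in iFTn-M4, against 11.4 and 10 CPM in PBS, with overlapping groups. Among them 1 rose and 0 fell. That gene, Mzb1, had 1.86 and 1.45 CPM in iFTn-M4, against 0.948 and 0.727 CPM in PBS (0.97 ± 0.34). DESeq2 did not call it (adjusted p = 0.21). Among 7 dendritic cell markers, whose median log2 fold change was -0.06, the integrin Itgax fell, at 14 and 11.8 CPM in iFTn-M4, against 20.7 and 19.5 CPM in PBS (-0.64 ± 0.18), and the transcription factor Zbtb46 had 36.2 and 37.6 CPM in iFTn-M4, against 27.9 and 30.5 CPM in PBS (0.34 ± 0.09, not called). By adjusted p the call ended for Itgax (0.0523 to 0.122 without iFTn-M4 replicate 2 or either PBS library, 0.123 to 0.125 on log2 TPM). Among 5 mast cell markers the receptor Kit fell, at 19.9 and 16.9 CPM in iFTn-M4, against 32.1 and 27.3 CPM in PBS (-0.69 ± 0.14), while the list's median was 0.60 and the chymase Cma1 had 2.36 and 2.96 CPM in iFTn-M4, against 2.27 and 1.19 CPM in PBS (0.61 ± 0.44, not called). The part of these cell markers in the falls of the cytokine and interferon lists was not tested.

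Complement genes rose more often than they fell, and clotting genes fell more often than they rose. Of 18 complement genes 7 rose and 3 fell, beside 11.5% rises over all tested genes. C3, the central protein of the cascade, had 975 and 947 CPM in iFTn-M4, against 274 and 343 CPM in PBS (1.64 ± 0.11, edgeR adjusted p = 2.98e-05; Entrez gene 12266, chromosome 17, 57203967 to 57228136). The inhibitor Serping1 had 289.6 and 302 CPM in iFTn-M4, against 175 and 218 CPM in PBS (0.59 ± 0.10). Of the 18 members 5 had split counts, and in the fit without such genes 4 of the remaining members rose. In coagulation and plasminogen activation 10 of 23 fell and 2 rose. Anxa2, a cell-surface platform for plasmin formation, had 298 and 274 CPM in iFTn-M4, against 562 and 507 CPM in PBS (-0.90 ± 0.11). For C3 both iFTn-M4 libraries were several times the level of the PBS libraries.

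Genes that heart muscle switches on under stretch fell almost throughout. Of 15 stretch and wall stress genes 13 fell and none rose, with a median log2 fold change of -1.17. Ankrd1, a nuclear and sarcomeric protein induced by load, had 1890.4 and 1877 CPM in iFTn-M4, against 4085 and 4401 CPM in PBS (-1.17 ± 0.11, edgeR adjusted p = 0.000178). The atrial natriuretic peptide Nppa had 939 and 933 CPM in iFTn-M4, against 1880.5 and 2270.0 CPM in PBS (-1.15 ± 0.12), and the cardiovascular heat shock protein Hspb7 had 1254 and 1287 CPM in iFTn-M4, against 2297 and 2604 CPM in PBS (-0.95 ± 0.14). Among 12 calcium handling genes 4 rose and 1 fell, with 7 rises on log2(TPM + 1). The sarcoplasmic calcium pump Atp2a2 had 10203 and 11883 CPM in iFTn-M4, against 5611 and 5875 CPM in PBS (0.94 ± 0.12), and Hrc, a calcium-binding protein of the same store, had 863 and 900.1 CPM in iFTn-M4, against 452 and 479 CPM in PBS (0.92 ± 0.08, edgeR adjusted p = 4.9e-05). Of 20 ion channels and connexins 5 rose, or 8 on log2 TPM, and 1 fell. Kcnip2, a partner of the transient outward potassium channel, had 177 and 201 CPM in iFTn-M4, against 82.8 and 80.8 CPM in PBS (1.21 ± 0.09). Kcnj11, the pore of the ATP-sensitive potassium channel, had 124 and 142 CPM in iFTn-M4, against 85.9 and 94.2 CPM in PBS (0.56 ± 0.09), and the slow potassium current subunit Kcne1 had 22.3 and 21.4 CPM in iFTn-M4, against 8.47 and 8.53 CPM in PBS (1.36 ± 0.16).

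Sarcomere genes gave 5 rises and 2 falls of 20, with the median at 0.23 and counts split in 2 members. The rises were 1 without PBS replicate 1 or iFTn-M4 replicate 2, 2 without iFTn-M4 replicate 1, 3 without either iFTn-MR4 library or split-count genes, and 8 without either iFTn-R4 library. They were 9 without the offset, 8 in the offset fit alone and 10 on log2 TPM. Myosin binding protein C, Mybpc3, had 4382 and 4283 CPM in iFTn-M4, against 3030.0 and 3268 CPM in PBS (0.46 ± 0.09), and the cardiac actin Actc1 had 7578 and 7632 CPM in iFTn-M4, against 11951 and 11978 CPM in PBS (-0.65 ± 0.12). By adjusted p their calls ended for Mybpc3 (0.0757 to 0.117 without either iFTn-M4 library or PBS replicate 1) and Actc1 (0.073 to 0.105 without either iFTn-M4 library or either PBS library, 0.129 to 0.166 on log2 TPM). The atrial markers gave 1 rise and 1 fall of 6. The 3 stretch genes named above kept their calls in every fit run. Genes whose calls held in most fits were preferred in naming, so this describes those 3 genes and not the list.

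Glycolysis genes fell more often than they rose, and about as many genes of branched-chain amino acid breakdown rose as were not called. Of 28 genes of glucose transport, glycolysis and glycogen 14 fell and 7 rose. Pkm, the last kinase of glycolysis, had 1217 and 1228 CPM in iFTn-M4, against 2158 and 2047 CPM in PBS (-0.78 ± 0.08), and the lactate exporter Slc16a3 had 19.7 and 14.6 CPM in iFTn-M4, against 131 and 90.9 CPM in PBS (-2.70 ± 0.20, edgeR adjusted p = 4.07e-05). The muscle enolase Eno3 rose, at 1127 and 1181 CPM in iFTn-M4, against 739 and 891 CPM in PBS (0.50 ± 0.10). Of 17 genes of branched-chain amino acid breakdown 9 rose and none fell, with 5 rises without iFTn-M4 replicate 2 and 14 on log2 TPM. Aldh6a1, an enzyme of valine breakdown, had 192 and 203 CPM in iFTn-M4, against 107 and 115 CPM in PBS (0.83 ± 0.12), and Bckdha, a subunit of the dehydrogenase that commits these amino acids, had 213 and 238 CPM in iFTn-M4, against 156 and 171 CPM in PBS (0.46 ± 0.10). Of 15 PPAR, PGC-1 and ERR regulators 6 rose and none fell, with 1 rise without iFTn-M4 replicate 2, 2 without PBS replicate 1 and 3 without PBS replicate 2. Ppara, the receptor that drives fatty acid burning, had 71.3 and 79.4 CPM in iFTn-M4, against 39 and 45.9 CPM in PBS (0.83 ± 0.10).

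Fatty acid uptake and oxidation gave 6 rises and no fall of 29, beside a background of 11.5%. That count was 0 without iFTn-M4 replicate 1, 0 without PBS replicate 1, 1 without iFTn-M4 replicate 2, 2 without PBS replicate 2, 2 without either iFTn-MR4 library, 12 without either iFTn-R4 library, 12 with the 4 compared libraries alone and 13 on log2 TPM. Etfb, an electron carrier from fatty acid oxidation, had 543 and 479.7 CPM in iFTn-M4, against 359.5 and 386 CPM in PBS (0.46 ± 0.12), with the call ending by adjusted p for Etfb (0.0751 to 0.0974 without iFTn-M4 replicate 1 or PBS replicate 1). Respiratory complex I gave 4 rises of 37, a share near the background, with 0 to 2 without iFTn-M4 replicate 1, iFTn-M4 replicate 2 or PBS replicate 1, 22 in the length offset fit alone and 11 on log2 TPM. Complexes II to V gave 4 rises of 40, also near it, with 1 to 2 without iFTn-M4 replicate 1, PBS replicate 1 or PBS replicate 2, 9 without either iFTn-R4 library, 7 to 8 in DESeq2, with library size alone or with the 4 compared libraries alone, 23 in the offset fit alone and 16 on log2 TPM. Sdha, which serves both complex II and the TCA cycle, had 1288 and 1397 CPM in iFTn-M4, against 969 and 999.9 CPM in PBS (0.45 ± 0.09). The TCA list gave 5 rises and 1 fall of 27, with 2 rises without iFTn-M4 replicate 2 or PBS replicate 1, 3 without iFTn-M4 replicate 1, 14 in the offset fit alone and 15 on log2 TPM. The median log2 fold changes were 0.16 for fatty acid genes, 0.06 for complex I, 0.12 for complexes II to V and 0.15 for the TCA list, and 0.28 to 0.32 with the offset.

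Of 20 hypoxia-inducible genes 4 fell and 2 rose, with 8 falls without either iFTn-R4 library and 7 with the 4 compared libraries alone. Its shares of 20% falls and 10% rises stood near the 14.2% and 11.5% of all tested genes, and its median log2 fold change was -0.13. Egln3, the oxygen-sensing prolyl hydroxylase that hypoxia itself induces, had 42.4 and 47.6 CPM in iFTn-M4, against 215 and 168 CPM in PBS (-2.09 ± 0.16, edgeR adjusted p = 3.69e-05). P4ha1, a collagen prolyl hydroxylase, had 106 and 102 CPM in iFTn-M4, against 212 and 202 CPM in PBS (-0.99 ± 0.09), while the hypoxia factor Epas1 rose, at 473 and 469 CPM in iFTn-M4, against 269.5 and 298 CPM in PBS (0.73 ± 0.09). Circadian clock genes gave 9 rises and 1 fall of 18, with 5 rises without PBS replicate 1. The repressor Nr1d2 had 195 and 186 CPM in iFTn-M4, against 91.8 and 94.2 CPM in PBS (1.03 ± 0.11), the period gene Per3 79.6 and 58.7 CPM in iFTn-M4, against 30.4 and 28.2 CPM in PBS (1.24 ± 0.16) and the output factor Tef 213 and 197 CPM in iFTn-M4, against 133 and 111 CPM in PBS (0.75 ± 0.13). Nfil3, which represses the sites that Tef activates, fell, at 10.6 and 10.3 CPM in iFTn-M4, against 26.3 and 22.5 CPM in PBS (-1.23 ± 0.15). The labels give no hour of tissue collection, and its part in the clock genes was not tested. The clock E-box CACGTG was in 5 of 16 clock promoters, among them 2 of the 10 of called clock genes, and in 10% of all promoters.

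Protein-folding and stress genes fell more often than they rose. Of 24 genes of the unfolded protein response 18 fell and none rose, with a median of -0.65. The endoplasmic reticulum chaperone Hspa5 had 593 and 716 CPM in iFTn-M4, against 1206 and 1336 CPM in PBS (-0.96 ± 0.11), and the calcium-binding chaperone Calr had 539 and 580.4 CPM in iFTn-M4, against 1136 and 1201 CPM in PBS (-1.06 ± 0.08, edgeR adjusted p = 8.29e-05). Hsp90b1, the HSP90 of the same compartment, had 607 and 595 CPM in iFTn-M4, against 955 and 964 CPM in PBS (-0.67 ± 0.09). Sdf2l1, on the same list, had 15.3 and 18.3 CPM in iFTn-M4, against 47.2 and 50.3 CPM in PBS (-1.54 ± 0.11). Of 25 cytosolic and mitochondrial chaperones 17 fell and none rose. The small heat shock protein Cryab, abundant in muscle, had 1236 and 1192 CPM in iFTn-M4, against 3703 and 4057 CPM in PBS (-1.68 ± 0.16), and Hspb1 had 142 and 151 CPM in iFTn-M4, against 709 and 795 CPM in PBS (-2.36 ± 0.17, edgeR adjusted p = 3.68e-05). Of 19 genes of the ATF4 stress response 11 fell and none rose, or 7 on log2 TPM. The stress cytokine Gdf15 had 4.94 and 7.38 CPM in iFTn-M4, against 34.2 and 28.8 CPM in PBS (-2.35 ± 0.21). Of 32 proteasome subunits 19 fell and none rose, with 29 falls without the length offset, 9 without PBS replicate 2, 10 without iFTn-M4 replicate 2 and 7 to 9 on log2 TPM. Psmd14, the deubiquitinase of the proteasome lid, had 63.3 and 59.3 CPM in iFTn-M4, against 102 and 111 CPM in PBS (-0.80 ± 0.09). The summed chaperone level was 8724 and 8921 CPM in iFTn-M4, against 14250.0 and 15482 CPM in PBS, without overlap.

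The heat shock element core GAANNTTC, which reads the same on both strands, was in 8 of 19 chaperone promoters and in 5.64% of all promoters. Among the 15 chaperone promoters of genes that fell it was in 5. The XBP1 site TGACGTG was in 1 of 21 promoters of the unfolded protein response list and in 2.8% of all. Hspb1 is shown as the most abundant falling chaperone with the core. Its promoter (chr5:135887669-135887968, plus strand) holds 2 cores in capitals, the first starting at -117.
Hspb1: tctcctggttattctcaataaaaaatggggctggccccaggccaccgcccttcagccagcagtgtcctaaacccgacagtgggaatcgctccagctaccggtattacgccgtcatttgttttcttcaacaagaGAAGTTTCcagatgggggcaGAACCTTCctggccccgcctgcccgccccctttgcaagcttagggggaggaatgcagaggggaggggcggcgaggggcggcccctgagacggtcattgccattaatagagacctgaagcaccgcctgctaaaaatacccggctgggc

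Growth-linked genes were lower in part. Of 19 early-response factors 8 fell and 1 rose, with 5 falls on log2 TPM. Junb, a subunit of the AP-1 factor, had 45.2 and 44.2 CPM in iFTn-M4, against 91.7 and 103 CPM in PBS (-1.12 ± 0.10), and Ier3, an early survival gene, 31.3 and 29.2 CPM in iFTn-M4, against 96.9 and 91.1 CPM in PBS (-1.64 ± 0.11). Klf4, a factor of quiescent vessel walls, rose, at 50.8 and 61.6 CPM in iFTn-M4, against 33.7 and 30.3 CPM in PBS (0.81 ± 0.14). Of 19 p53 targets 7 fell and 2 rose, with 4 falls without iFTn-M4 replicate 2 and 4 on log2 TPM. The cell cycle inhibitor Cdkn1a had 49.4 and 58.9 CPM in iFTn-M4, against 135 and 149.6 CPM in PBS (-1.39 ± 0.17), while Sesn1, a stress-induced inhibitor of mTORC1, rose, at 161 and 166 CPM in iFTn-M4, against 90.3 and 85.9 CPM in PBS (0.89 ± 0.09). Of 24 DNA replication genes 11 fell and none rose. That count was 1 without PBS replicate 1, 6 without PBS replicate 2, 2 without iFTn-M4 replicate 2 and 2 to 3 on log2 TPM. The helicase subunits Mcm6 (54.6 and 49.6 CPM in iFTn-M4, against 77.3 and 69.8 CPM in PBS; -0.50 ± 0.13) and Mcm3 (33.8 and 31.2 CPM in iFTn-M4, against 59 and 48.1 CPM in PBS; -0.72 ± 0.15) are examples, and by adjusted p their calls ended for Mcm6 (0.051 to 0.146 without iFTn-M4 replicate 2 or either PBS library, 0.153 to 0.163 on log2 TPM) and Mcm3 (0.0586 to 0.062 without iFTn-M4 replicate 2 or PBS replicate 1, 0.0538 to 0.0551 on log2 TPM). Of 24 mitosis genes 1 fell and none rose, Mki67 standing at 94.1 and 74 CPM in iFTn-M4, against 73.3 and 55.1 CPM in PBS and Top2a at 65.5 and 57.1 CPM in iFTn-M4, against 71.2 and 52.9 CPM in PBS, the groups overlapping for Top2a and the 2 fits differing in sign for Mki67. The E2F site TTTNGCGC was in 8 of 20 replication promoters, in 1 of 20 mitosis promoters and in 2.3% of all. Among the 10 replication promoters of genes that fell it was in 6. Mcm6 is shown as the most abundant falling member with the site. Its promoter (chr1:128359656-128359955, minus strand) has 3 sites in capitals, 2 of them overlapping, the first starting at -110.
Mcm6: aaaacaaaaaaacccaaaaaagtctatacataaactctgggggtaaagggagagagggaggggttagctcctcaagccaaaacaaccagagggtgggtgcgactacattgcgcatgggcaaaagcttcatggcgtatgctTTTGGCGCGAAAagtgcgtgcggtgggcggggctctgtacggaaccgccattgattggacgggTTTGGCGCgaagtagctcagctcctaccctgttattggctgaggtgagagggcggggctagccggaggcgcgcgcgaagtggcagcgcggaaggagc

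Calls of ribosomal protein genes, whose transcripts are short, depended on the length offset. Of 47 cytosolic members 16 fell and 1 rose, against 33 falls without the offset, and the median log2 fold change was -0.34 without and -0.1 with it. The count of falls was 5 to 7 without any library of the 4 compared, 10 without either iFTn-MR4 library and 2 to 3 on log2 TPM. Rpl3, a core protein of the large subunit, had 487 and 439.6 CPM in iFTn-M4, against 767 and 809 CPM in PBS (-0.77 ± 0.09), and its log2 fold change was -0.53 with the offset. Of 42 mitochondrial ribosomal proteins 11 fell and none rose, against 22 without the offset, 2 without iFTn-M4 replicate 2, 6 without PBS replicate 1, 2 without PBS replicate 2, 6 in DESeq2 and 2 on log2 TPM.

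Genes of fibroblast identity and small proteoglycans rose in most members, collagen genes rose more often than they fell, and other matrix lists held rises and falls. Of 16 genes of fibroblast identity 10 rose and none fell, with a median of 0.78 and a summed level of 3081 and 3879 CPM in iFTn-M4, against 1687 and 1795 CPM in PBS. The actin-severing protein Gsn had 1804 and 2485 CPM in iFTn-M4, against 939 and 1009.7 CPM in PBS (1.14 ± 0.14), the fibril-associated collagen Col14a1 253 and 231 CPM in iFTn-M4, against 86.5 and 80.2 CPM in PBS (1.54 ± 0.13, edgeR adjusted p = 0.00013) and the ferritin receptor Scara5 49.4 and 65 CPM in iFTn-M4, against 19.8 and 17.4 CPM in PBS (1.62 ± 0.16). Of 10 small leucine-rich proteoglycans, which space collagen fibrils, 8 rose and none fell. Asporin, Aspn, had 123 and 134 CPM in iFTn-M4, against 52.8 and 50.6 CPM in PBS (1.32 ± 0.08, edgeR adjusted p = 9.25e-06), Ogn 228 and 235 CPM in iFTn-M4, against 109.5 and 124 CPM in PBS (0.99 ± 0.08) and Lum 325 and 323 CPM in iFTn-M4, against 149 and 158 CPM in PBS (1.08 ± 0.09). For these genes the PBS libraries were close together, and every iFTn-M4 library lay above them. Of 28 collagen chains 10 rose and 1 fell, with 5 rises without PBS replicate 2 and 6 without PBS replicate 1 or iFTn-M4 replicate 2. Col6a1 had 479 and 541 CPM in iFTn-M4, against 356 and 333 CPM in PBS (0.57 ± 0.10) and Col3a1 6931 and 5609 CPM in iFTn-M4, against 3545 and 3354 CPM in PBS (0.86 ± 0.17). By adjusted p the calls ended for Col6a1 (0.0557 without iFTn-M4 replicate 2) and Col3a1 (0.0662 to 0.129 without iFTn-M4 replicate 1 or either PBS library). The part of fibroblast number in these rises was not tested.

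Matricellular proteins and fibre assembly genes gave 13 rises and 7 falls of 31, with 4 falls without iFTn-M4 replicate 2, 4 without PBS replicate 2 and 3 on log2 TPM. Postn, secreted by activated fibroblasts, had 1131 and 1204 CPM in iFTn-M4, against 591 and 569 CPM in PBS (1.01 ± 0.13), and Sparcl1, a relative of osteonectin, had 601 and 581 CPM in iFTn-M4, against 236 and 260.2 CPM in PBS (1.25 ± 0.10, edgeR adjusted p = 3.71e-05). Ccn2, the connective tissue growth factor, fell, at 179.8 and 189 CPM in iFTn-M4, against 553 and 628 CPM in PBS (-1.68 ± 0.11, edgeR adjusted p = 2.95e-05; Entrez gene 14219, chromosome 10, 24595442 to 24598683). Among 29 metalloproteinases, ADAMs and inhibitors 5 rose and 9 fell, with 8 rises in the fit with the replicate block, 10 without the offset and 10 rises and 5 falls on log2 TPM. Timp2, an inhibitor of these proteases, had 302 and 325 CPM in iFTn-M4, against 159.6 and 145 CPM in PBS (1.04 ± 0.09), while the sheddase Adam9 fell, at 161 and 144 CPM in iFTn-M4, against 211 and 229.8 CPM in PBS (-0.54 ± 0.09). Of 13 hyaluronan genes 3 fell, or 1 without iFTn-M4 replicate 1 and 1 without PBS replicate 2, and 2 rose. The hyaluronan receptor Cd44 had 80.1 and 69 CPM in iFTn-M4, against 151 and 124 CPM in PBS (-0.88 ± 0.13), and the synthase Has3 5.08 and 5.24 CPM in iFTn-M4, against 2.09 and 2.18 CPM in PBS (1.27 ± 0.22). Of 29 integrins and laminins 7 fell and 3 rose, with 10 rises without the offset and 9 on log2 TPM. The fibronectin receptor chain Itga5 had 144 and 154 CPM in iFTn-M4, against 307 and 361 CPM in PBS (-1.17 ± 0.11), the laminin receptor chain Itga7 227 and 247 CPM in iFTn-M4, against 345 and 350.2 CPM in PBS (-0.55 ± 0.08), and Itga8, of stromal cells, rose, at 12.2 and 14.1 CPM in iFTn-M4, against 3.79 and 3.83 CPM in PBS (1.78 ± 0.19).

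Among 26 genes of the TGF-beta family 8 fell and 1 rose, or 8 and 7 without the offset. The activin subunit Inhbb had 6.01 and 5.65 CPM in iFTn-M4, against 43.4 and 32.5 CPM in PBS (-2.70 ± 0.16, edgeR adjusted p = 9.2e-06; -2.08 on log2(TPM + 1)), and the ligand Tgfb2 28.3 and 22.7 CPM in iFTn-M4, against 36.4 and 41.3 CPM in PBS (-0.61 ± 0.12). Of 13 insulin-like growth factor genes 5 rose, or 3 without iFTn-M4 replicate 2 and 3 without PBS replicate 2, and 3 fell. Igfbp3, a binding protein of the circulating factors, fell, at 54 and 66.3 CPM in iFTn-M4, against 216 and 138 CPM in PBS (-1.56 ± 0.24), and Igfbp4 rose, at 185 and 201 CPM in iFTn-M4, against 134 and 130.1 CPM in PBS (0.55 ± 0.08). Of 15 smooth muscle and myofibroblast genes 7 rose and 1 fell, with 2 rises without PBS replicate 1, 3 without iFTn-M4 replicate 1 and 4 without PBS replicate 2 or iFTn-M4 replicate 2. The member that fell was desmin, Des, at 1896 and 2320.1 CPM in iFTn-M4, against 3471 and 3814 CPM in PBS (-0.79 ± 0.14), an intermediate filament that heart muscle makes as well. Of 9 pericyte markers 4 rose and none fell, with Rgs5, a brake on G protein signals, at 729 and 715 CPM in iFTn-M4, against 329 and 364 CPM in PBS (1.06 ± 0.11) and the channel subunit Abcc9 at 399.6 and 405 CPM in iFTn-M4, against 171 and 193 CPM in PBS (1.15 ± 0.10). Of 28 angiogenic genes 5 rose, or 2 without PBS replicate 1, 3 without PBS replicate 2, 3 without iFTn-M4 replicate 2 and 9 without the offset, and 6 fell. The apelin receptor Aplnr had 95.1 and 88.7 CPM in iFTn-M4, against 49.8 and 48 CPM in PBS (0.91 ± 0.16), while Angptl4, an inhibitor of lipoprotein lipase, fell, at 22.8 and 15.7 CPM in iFTn-M4, against 119 and 88.1 CPM in PBS (-2.43 ± 0.35). Of 20 endothelial genes 3 rose, or 1 without iFTn-M4 replicate 2, 5 without the offset and 7 to 8 on log2 TPM, and 4 fell, or 2 without either iFTn-M4 library, shares near the 11.5% rises and 14.2% falls of all tested genes. The fatty acid carrier Fabp4 rose, at 608 and 576 CPM in iFTn-M4, against 338 and 406 CPM in PBS (0.67 ± 0.12), and the fenestral protein Plvap fell, at 39.4 and 33.2 CPM in iFTn-M4, against 73.7 and 98.2 CPM in PBS (-1.24 ± 0.19).

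Because the nanocages are named for superoxide scavenging, the genes that remove superoxide and peroxide are given whatever their result. Of 18 tested genes none was called in both fits by edgeR, nor by DESeq2 or limma on log2(TPM + 1). Without the offset alone 5 fell and 0 rose, and at an unadjusted p under 0.05 in both fits 3 fell and 0 rose. Their median log2 fold change was -0.08 without the offset and 0.11 with it, so its sign followed the setting. Mitochondrial superoxide dismutase Sod2 had 444 and 399 CPM in iFTn-M4, against 409 and 449.9 CPM in PBS (-0.03 ± 0.09), with overlapping groups. Cytosolic Sod1 had 188 and 179 CPM in iFTn-M4, against 195 and 208 CPM in PBS, lower in iFTn-M4 without the offset (-0.14 ± 0.09) and higher with it (0.09). Extracellular Sod3 had 70.9 and 67.5 CPM in iFTn-M4, against 83.8 and 104 CPM in PBS (-0.44 ± 0.11, edgeR adjusted p = 0.077). Catalase, Cat, had 195 and 210.2 CPM in iFTn-M4, against 202 and 214 CPM in PBS (-0.04 ± 0.17), with overlapping groups. The peroxiredoxin Prdx1 had 390.1 and 357 CPM in iFTn-M4, against 453 and 427 CPM in PBS (-0.24 ± 0.09, not called). Values that do not pass the test do not show that levels were equal.

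Thioredoxin, glutathione and NRF2 target genes gave 13 falls and 1 rise of 25, with 8 falls without either PBS library, 6 without iFTn-M4 replicate 2 and 6 on log2 TPM. Thioredoxin Txn1 had 100.3 and 95.1 CPM in iFTn-M4, against 172 and 170.0 CPM in PBS (-0.81 ± 0.07), thioredoxin reductase Txnrd1 89.7 and 81.3 CPM in iFTn-M4, against 168 and 169 CPM in PBS (-0.98 ± 0.10) and Pgd, which makes NADPH, 95 and 86.4 CPM in iFTn-M4, against 174 and 143 CPM in PBS (-0.80 ± 0.12). The glutathione transferase Gsta3 rose, at 9.59 and 11 CPM in iFTn-M4, against 5.56 and 5.09 CPM in PBS (0.95 ± 0.19). Of 10 NADPH oxidase genes, which make superoxide, 3 fell and 1 rose, with 1 fall without iFTn-M4 replicate 1, iFTn-M4 replicate 2 or PBS replicate 1, 5 without the offset and 1 on log2 TPM. The leukocyte GTPase Rac2 had 38.8 and 36 CPM in iFTn-M4, against 62.9 and 57.6 CPM in PBS (-0.69 ± 0.11). Of 18 iron and haem genes 4 rose, or 2 without either iFTn-M4 library, and 1 fell. The iron exporter Slc40a1 had 50.3 and 40.7 CPM in iFTn-M4, against 21.1 and 23.3 CPM in PBS (1.04 ± 0.17), and the ferrireductase Steap4 70.5 and 70.2 CPM in iFTn-M4, against 45.1 and 48.2 CPM in PBS (0.59 ± 0.13). Of 10 metallothionein and S100 genes 4 fell, or 2 on log2(TPM + 0.1), and 1 rose. The metal-binding Mt2 had 36.5 and 36.1 CPM in iFTn-M4, against 121 and 109 CPM in PBS (-1.67 ± 0.30), while S100a1, a calcium sensor of heart muscle, rose, at 313 and 297 CPM in iFTn-M4, against 213 and 237 CPM in PBS (0.44 ± 0.08).

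**Figure D5:**
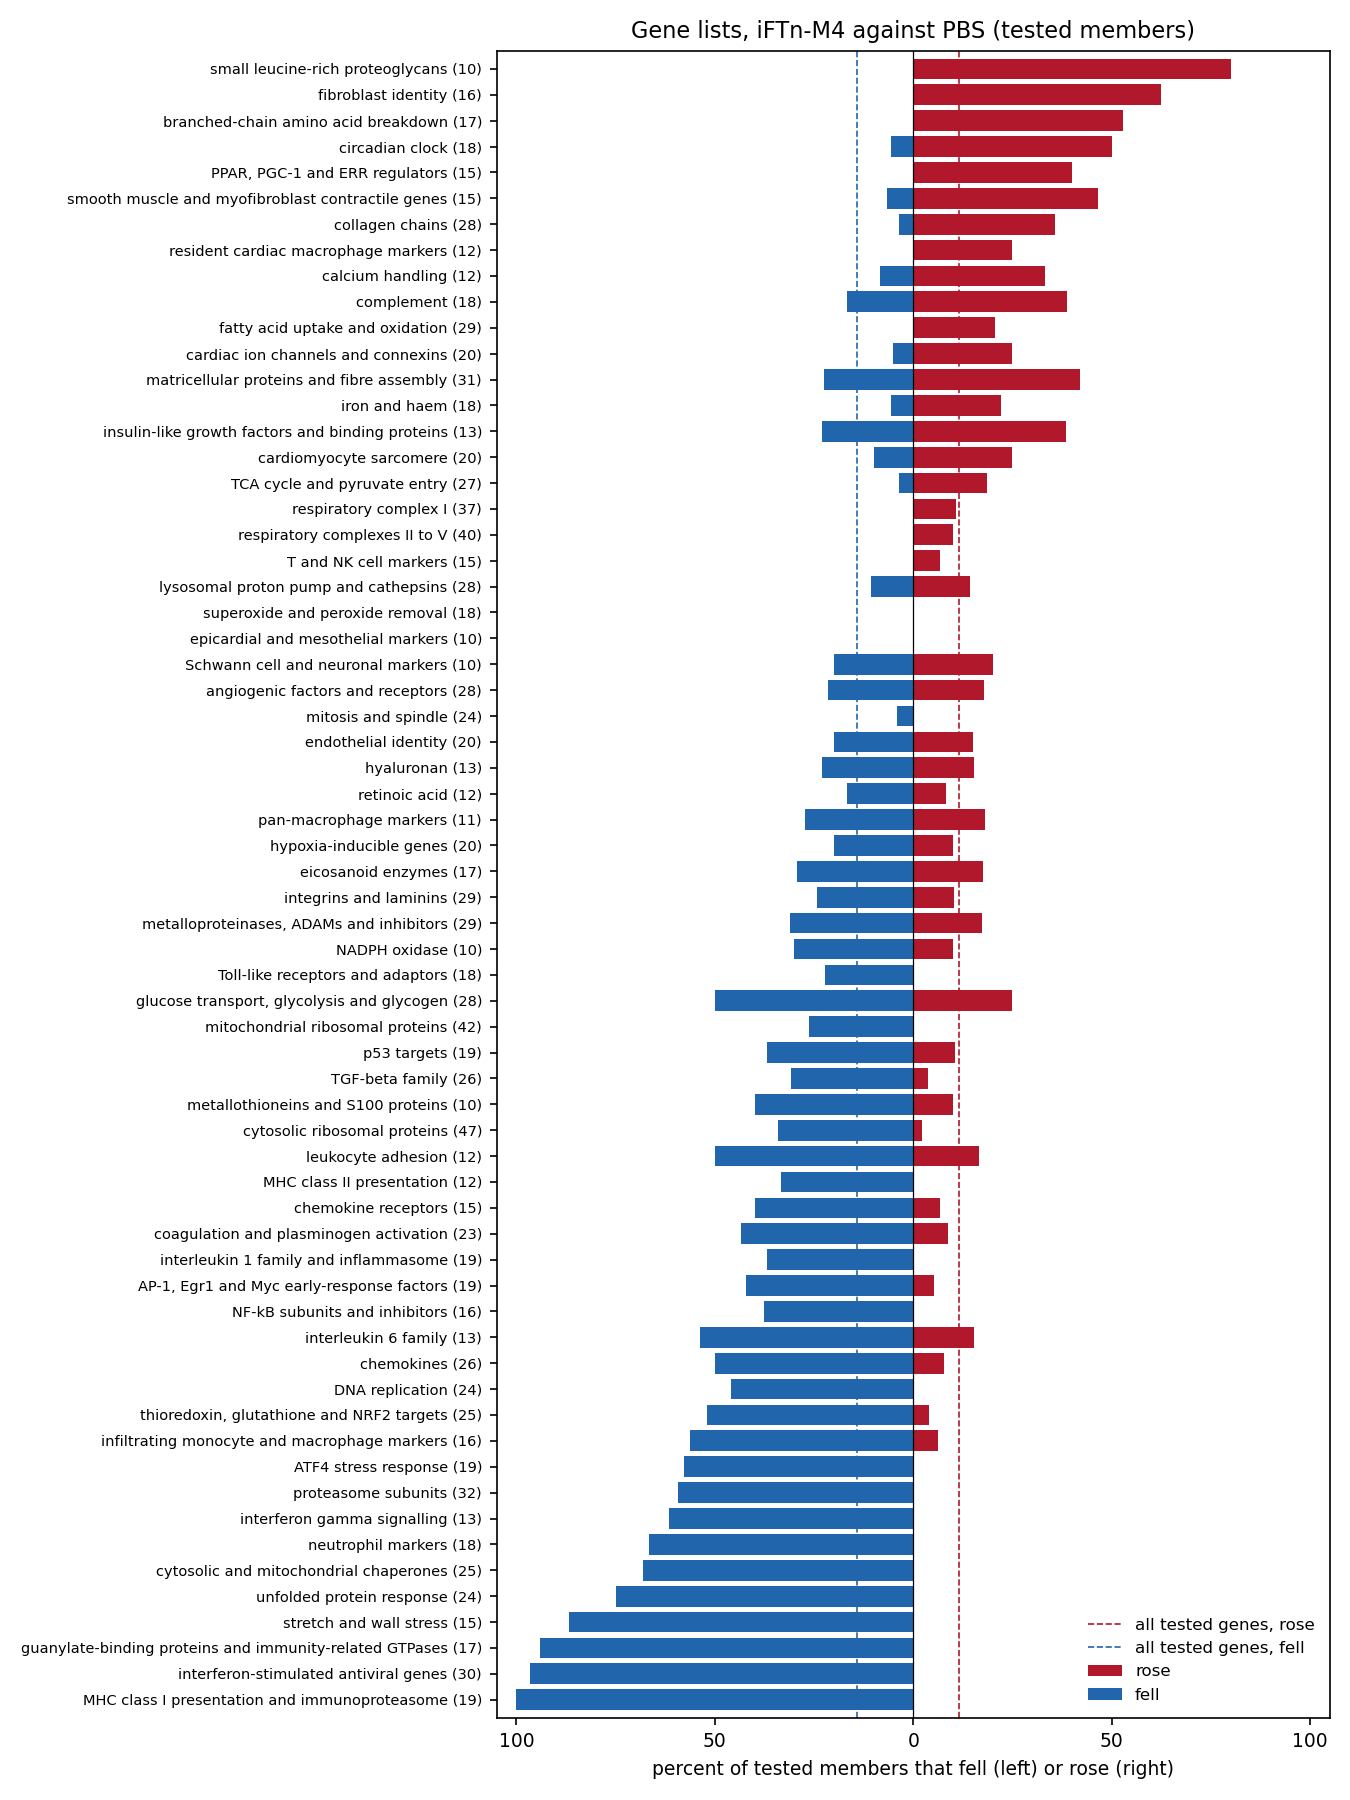
Percent of the tested members of each gene list that fell (left, blue) or rose (right, red) in iFTn-M4 against PBS, for lists with at least 10 tested members (number in brackets). Dashed lines mark the percent of all tested genes that fell (14.2%) and rose (11.5%). MHC class I, antiviral, GTPase and stretch lists reach furthest left, and proteoglycan and fibroblast lists furthest right.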

How the data were processed

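Expression was measured by RNA-seq of injured mouse heart tissue in 8 libraries, 2 for each of iFTn-M4, iFTn-R4, iFTn-MR4 and PBS. The submitters' processing notes name the mouse build GRCm38.p6 and the tools HISAT2 2.1.0, Bowtie2 2.2.5 and RSEM 1.2.8. Per gene and library, the authors deposited an expected count, an FPKM and a TPM, with PBS in 1 table and the nanocages in another. Expected counts need not be whole, since reads shared by similar genes are divided, so 1162 genes with non-whole counts are called split. The deposited TPM values keep no depth and served the alternatives on a log2(TPM + pseudocount) scale. The deposited FPKM values served to find effective transcript lengths, as counts over FPKM in genes with at least 10 counts.

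The tables were joined on gene ID. Counts were rounded and fitted for all 8 libraries by group in edgeR 4.0.16 (R 4.3.3) with TMM factors and filterByExpr. The fit was run without and with a per-library length offset, a natural spline of 4 degrees of freedom fitted on genes that average 50 counts or more. The biological coefficient of variation was 8.47%, with 4 residual degrees of freedom. Standard errors are the absolute log2 fold change over the square root of the test's F statistic, with the spread estimated from all 8 libraries. Library totals were 13618588 to 15729385 expected counts, and intervals cover the spread between libraries only. The steps were tested on simulated data. DESeq2 1.42.0 and limma 3.58.1 served as alternatives.

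Members and gene lists were chosen with earlier results of these data known. Genes are named by a rule. It takes the 8 largest rises and falls among called genes of at least 5 CPM with whole counts. Predicted genes, clones and pseudogenes were left out of these. For each list it takes the 3 most abundant called genes, the largest change and the most abundant gene of the rarer direction. Among the genes that this rule gave, those whose calls held in most fits were preferred after their values were seen. Promoters were matched by gene ID to RefSeq.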

Additional observations from a re-analysis of the deposited data

Results flagged for a closer look

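Of 1093 genes listed in the nanocage table alone, 1 had at least 10 expected counts in both iFTn-M4 libraries. It was Xntrpc, with 17.1 and 25.6 expected counts in iFTn-M4 (mean 21.4). The gene has no row in the PBS table, so no comparison was possible, and it entered no test.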

How the results depend on the processing

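The total of 3576 calls (1599 up, 1977 down) was 5745 (2764 up, 2981 down) without the length offset. It ranged from 1885 to 4247 with 1 of the 8 libraries left out, with 795 to 1901 rises and 1090 to 2394 falls. On log2(TPM + 1) 2840 genes rose and 1035 fell, and on log2(TPM + 0.1) 2868 rose and 985 fell, where the median of all genes moved to 0.14 and 0.17, so directions on that scale are relative to those medians. DESeq2 called 2676, the offset fit alone 4580, and the other normalizations, filters, spline and length sources called 3356 to 3964. The length trend was 0.54 (difference of median log2 fold change between the longest and shortest quintile) and 0.45 on log2(TPM + 1). Of the 281 genes that the naming rule gives, 262 were called, and 119 of these lost the call in at least 1 of 23 settings, 91 of them without iFTn-M4 replicate 2. None of the 262 changed sign in these settings. Of 70 list counts of at least 3, 30 moved by over 1.5 times without iFTn-M4 replicate 2 and 29 on log2(TPM + 1).

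The signs of 6 uncalled genes changed. With the offset alone the log2 fold change of Cat was 0.07, of Sod1 0.09 and of Mki67 -0.04. On log2(TPM + 1) and log2(TPM + 0.1) it was 0.14 and 0.14 for Cat, 0.16 and 0.16 for Sod2, and 0.17 and 0.18 for Top2a. With 1 library left out it ranged from -0.10 to 0.00 for Cat, -0.12 to 0.05 for Sod2, -0.22 to 0.21 for Top2a and -0.31 to 0.45 for Hbb-bs, and only PBS or iFTn-M4 libraries turned the sign. The cause was not tested.

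Replicate numbers were shared between groups, but the deviations of same-numbered libraries correlated at 0.136 for PBS with iFTn-M4 and at 0.00612 to 0.182 over all 6 pairs of groups, so the numbers were not taken to pair the samples. With the number as a replicate block 3831 genes were called, 1717 up and 2114 down. Group and table cannot be told apart in any setting.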

Other observations

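Smaller groups outside the comparisons above were mixed. Of 8 tested cartilage and bone genes 3 rose and 1 fell, with 1 rise without iFTn-M4 replicate 1 and 1 without PBS replicate 1. Matn2, a matrix filament adaptor, had 86.6 and 86.1 CPM in iFTn-M4, against 38.7 and 37.7 CPM in PBS (log2 fold change 1.18 ± 0.09, edgeR adjusted p = 3.71e-05), and 8 of the 16 genes on that list had too few counts or no value in both tables. Of 10 Schwann cell and neuronal genes 2 rose and 2 fell, with the sodium channel Scn7a at 54 and 54.3 CPM in iFTn-M4, against 24.3 and 23.3 CPM in PBS (1.19 ± 0.10). In retinoic acid metabolism 1 of 12 rose and 2 fell, also near the 11.5% and 14.2% of all tested genes. The synthesizing enzyme Aldh1a2 had 65.5 and 59.7 CPM in iFTn-M4, against 129 and 149 CPM in PBS (-1.15 ± 0.14). The receptor Rara had 20.6 and 20.5 CPM in iFTn-M4, against 31.2 and 29.6 CPM in PBS (-0.57 ± 0.09). Of 28 lysosomal genes 4 rose and 3 fell, shares near the 11.5% and 14.2% of all tested genes. Without iFTn-M4 replicate 2 these were 2 and 0, without PBS replicate 2 they were 2 and 1, and 1 fell without either iFTn-MR4 library, PBS replicate 1 or iFTn-M4 replicate 1. They were 8 rises in the offset fit alone, 6 falls without the offset, and 10 and 0 on log2 TPM.

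Lipoprotein lipase, Lpl, was the called adipocyte-list gene, at 4626 and 5289 CPM in iFTn-M4, against 2642 and 3208 CPM in PBS (0.76 ± 0.13), and heart muscle makes it too. By adjusted p its call ended for Lpl (0.0518 without iFTn-M4 replicate 2). Of 10 epicardial and mesothelial genes edgeR, DESeq2 and limma on log2(TPM + 1) called 0, and 1 fell at an unadjusted p under 0.05 in both fits. Their summed level was 84.9 and 109 CPM in iFTn-M4, against 174 and 70.8 CPM in PBS. Of 9 tested red cell and platelet genes 2 fell and 0 rose. The falls were those of Ppbp (log2 fold change -2.11, and -1.68 without PBS replicate 1) and Itga2b (-0.75, not called by DESeq2 at an adjusted p of 0.12). Haemoglobin genes, a sign of blood left in the tissue, overlapped between the groups. Hbb-bs had 270.4 and 464 CPM in iFTn-M4, against 386 and 285 CPM in PBS and Hba-a1 223 and 333 CPM in iFTn-M4, against 256 and 184 CPM in PBS, with counts split in all 4 libraries. The muscle creatine kinase Ckm, on the list of other tissues but made by heart as well, rose, at 1488 and 1512 CPM in iFTn-M4, against 1006 and 1099.9 CPM in PBS (0.51 ± 0.09), while the fast skeletal troponin Tnnt3 had 1.79 and 1.52 CPM in iFTn-M4, against 3.16 and 2.91 CPM in PBS (-0.87 ± 0.28, not called).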
